A study of Mus musculus with 4 samples.

Results

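The members are 10 genes of 3 glycosyltransferase families, enzymes of the secretory pathway that add sugars to mucin-type glycoproteins and to glycolipids, of 24391 genes listed in all. They comprise the branching N-acetylglucosaminyltransferases Gcnt1, Gcnt2, Gcnt3 and Gcnt4, the galactosyltransferases B4galt1, B4galt3, B4galt4, B4galt5 and B4galt6, and the N-acetylglucosaminyltransferase B3gnt3. The set was built around Gcnt3 and B4galt6, which were chosen by their log2 fold changes in these samples, and the others are their relatives, taken by symbol. The set thus rests on differences between these groups, so its members are described here with their errors and carry no test of their own.

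RNA was sequenced from 4 mouse lung tumour samples, from which cells bearing the leukocyte antigen CD45 had been depleted. Both groups carried K-Ras LSL-G12D, an oncogenic K-Ras allele kept silent by a stop cassette between lox sites. The group called K-Ras (n = 2) had no other allele named, and the group called K-Ras Mll4-/- (n = 2) also carried Mll4 fl/fl, floxed alleles of a histone H3 lysine 4 methyltransferase gene now named Kmt2d. The comparison asks how the tumour transcriptome differs with Mll4 deletion. The source of Cre, the age of the mice and the number of mice or tumours behind a sample are not given in the sources used here, so the p-values measure only the spread between these samples, which may be technical.

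Mucin-type O-glycans start with a GalNAc on serine or threonine, which galactose extends to the core 1 structure. Gcnt1, Gcnt3 and Gcnt4 add a branching GlcNAc, which turns core 1 into core 2. The mucous-tissue enzyme Gcnt3 can also build core 4 and the branched I structure. B4galt enzymes place galactose on such GlcNAc ends to give N-acetyllactosamine, or on glucosylceramide to give lactosylceramide, the parent of most gangliosides and globosides. Goblet and gastric mucous cells are known for heavily branched O-glycans on their secreted mucins.

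Counts per sample ranged from 26683033 to 36677987 reads in genes, and 3 reads, taken as the lowest number that shows a transcript, corresponded to 0.083 to 0.114 CPM (reads scaled to a common library size). Levels are given as CPM scaled with edgeR's trimmed mean of M values (TMM), differences as log2 fold changes (K-Ras Mll4-/- minus K-Ras) with the standard error (SE) of the edgeR quasi-likelihood fit. All 10 members passed the count filter, as did 16001 genes. Kmt2d itself was at 367 and 317 CPM in the K-Ras Mll4-/- samples and at 395 and 526 CPM in the K-Ras samples, a difference of -0.43 on the log2 scale (SE 0.21, adjusted p = 0.302 in edgeR's test), so the gene's total count does not show the deletion. The labelled tissue was checked with 8 alveolar type 2 markers, whose summed level was 18600 to 30500 CPM in the 4 samples.

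Upstream sequences were looked up for the branching enzymes because 3 of them were higher in the same samples. The RefSeq promoter table (GRCm38.p6) held 8 of the 10 members, all but Gcnt3 and B4galt6. The 250 bases before the most upstream listed start of Gcnt1 (chr19:17372845-17373094, minus strand), Gcnt4 (chr13:96924094-96924343, plus strand) and Gcnt2 (chr13:40859518-40859767, plus strand) are shown, the first pair for genes at higher levels in K-Ras Mll4-/- tumours and the last for the relative whose level was alike in both groups. Capitals mark matches on either strand to the 5 motifs searched.
Gcnt1: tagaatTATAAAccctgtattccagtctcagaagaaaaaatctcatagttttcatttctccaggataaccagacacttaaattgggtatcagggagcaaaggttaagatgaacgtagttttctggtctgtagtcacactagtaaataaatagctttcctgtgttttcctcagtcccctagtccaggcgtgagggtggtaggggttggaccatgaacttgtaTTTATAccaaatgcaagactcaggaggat
Gcnt4: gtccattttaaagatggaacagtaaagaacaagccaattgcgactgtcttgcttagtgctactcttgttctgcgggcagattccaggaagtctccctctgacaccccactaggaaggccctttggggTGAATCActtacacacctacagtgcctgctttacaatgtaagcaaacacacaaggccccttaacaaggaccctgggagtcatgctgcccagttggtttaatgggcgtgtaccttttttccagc
Gcnt2: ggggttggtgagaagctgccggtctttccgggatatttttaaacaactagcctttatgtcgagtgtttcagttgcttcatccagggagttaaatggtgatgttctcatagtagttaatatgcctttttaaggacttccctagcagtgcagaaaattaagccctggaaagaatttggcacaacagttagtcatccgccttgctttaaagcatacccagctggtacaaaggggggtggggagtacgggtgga

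The motifs were the E-box CACGTG, the hypoxia core ACGTG, which lies inside the E-box, the AP-1 site TGANTCA, the forkhead site TGTTTAC and the TATA box TATAAA. Gcnt1 held matches to the TATA box letters at 2 places. The match beginning at base -244 from the start reads TATAAA on the strand shown. The nearer match, beginning at base -29, reads TTTATA, so TATAAA lies there on the opposite strand. On either strand the motif was present in 12.4% of 32851 windows of this length. Gcnt4 held a match to the AP-1 letters at base -123, which reads TGAATCA. The pattern TGANTCA, with any base at N, was found in 6.75% of windows. The Gcnt2 window held no match to these letters. RefSeq lists 3 starts for Gcnt1, 2 for Gcnt4 and 3 for Gcnt2, and the counts per gene do not tell which was used. The bases after the Gcnt4 start shown were not found in a GENCODE transcript of the gene, whereas those after its other start were, and the window of that start held the hypoxia core at base -101, a motif in 16.6% of windows. The other Gcnt1 and Gcnt2 windows held no match.

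Among the branching enzymes, Gcnt3 differed most. Gcnt3 encodes the mucin-type core 2 enzyme and was at 1.28 and 2.35 CPM in the K-Ras samples, from 39 and 85 reads, and at 111 and 129 CPM in the K-Ras Mll4-/- samples, from 2908 and 4170 reads. Its mean was 1.81 ± 0.761 CPM in K-Ras and 120.1 ± 13.2 CPM in K-Ras Mll4-/- tumours (SD, n = 2 each), 66.2 times as high, with a log2 fold change of 6.03 (SE 0.35). Both K-Ras samples were low but well above the floor, and the groups did not overlap.

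Gcnt4, another core 2 enzyme, was at 5.43 and 7.53 CPM in K-Ras and at 26.9 and 67.0 CPM in K-Ras Mll4-/- samples. The K-Ras Mll4-/- samples were both higher but stood 2.49-fold apart from each other. The log2 fold change was 2.86 (SE 0.52), and 2.05 without K-Ras Mll4-/- replicate 2. Gcnt1, the core 2 enzyme best known from leukocytes, was at 26.1 and 11.4 CPM in K-Ras and at 63.3 and 84.1 CPM in K-Ras Mll4-/- samples. Here the K-Ras samples were the ones that differed from each other, and the groups again did not overlap. The log2 fold change was 1.97 (SE 0.44), and 2.69 without K-Ras replicate 1.

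Gcnt2, which makes the I branch on poly-N-acetyllactosamine rather than core 2, was at 98.3 and 104 CPM in K-Ras and at 100.2 and 96.7 CPM in K-Ras Mll4-/- samples. The groups overlapped, and the log2 fold change was -0.04 (SE 0.12). Counts per gene merge the alternative first exons of Gcnt2, so a switch among its isoforms would not be seen.

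**Figure D1:**
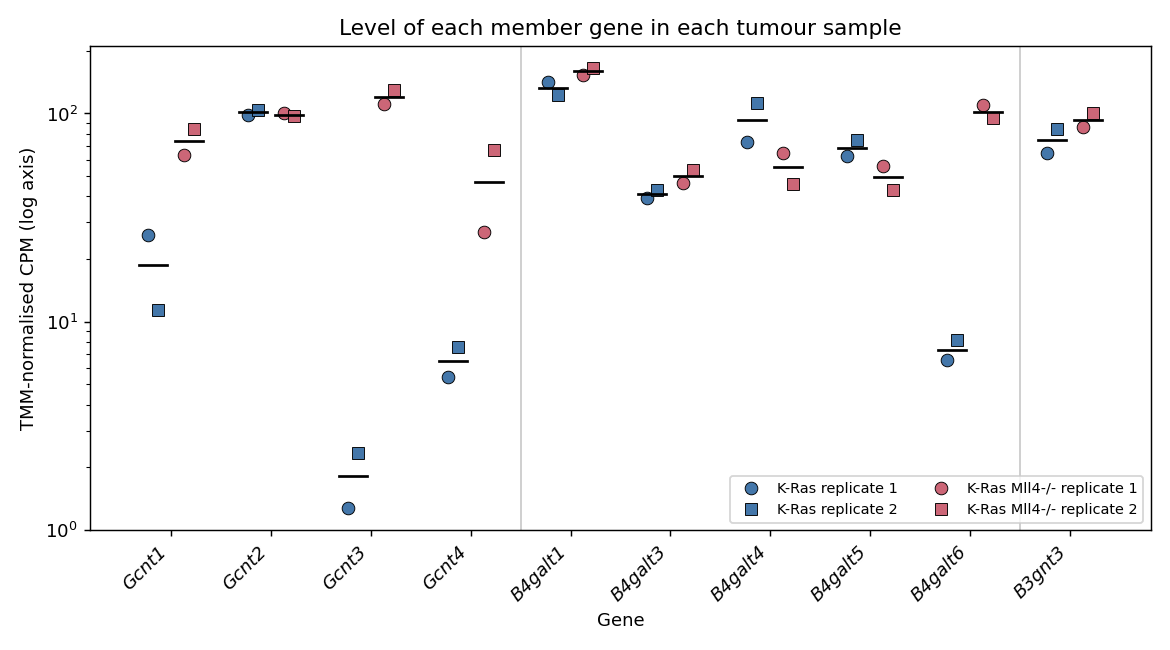
TMM-normalised CPM (log axis) of the 10 member genes, each point 1 sample (blue K-Ras, red K-Ras Mll4-/-, circles replicate 1, squares replicate 2) and each line a group mean of 2. Gcnt3 lies at 1.28 and 2.35 CPM in K-Ras and 111 and 129 CPM in K-Ras Mll4-/- samples, whereas Gcnt2 lies between 96.7 and 104 CPM in all 4.

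Among the galactosyltransferases, B4galt6 stood apart from its relatives. B4galt6 and B4galt5 both make lactosylceramide, and B4galt6 is best known from brain. B4galt6 was at 6.54 and 8.14 CPM in K-Ras (200 and 294 reads) and at 109 and 95.1 CPM in K-Ras Mll4-/- samples (2869 and 3066 reads). Its mean was 7.34 ± 1.13 CPM in K-Ras and 102 ± 10.00 CPM in K-Ras Mll4-/- tumours (SD, n = 2 each), 13.9 times as high, with a log2 fold change of 3.80 (SE 0.19). The replicates of each group lay close together and the groups were far apart.

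B4galt5 differed the other way and by less. It was at 62.3 and 74.6 CPM in K-Ras and at 55.6 and 43.0 CPM in K-Ras Mll4-/- samples, a log2 fold change of -0.47 (SE 0.19). The groups did not overlap, but the nearest samples were 62.3 and 55.6 CPM. Within a sample, where no scaling enters, there were 10.5 and 10.9 reads of B4galt6 per 100 reads of B4galt5 in the K-Ras samples and 196 and 221 in the K-Ras Mll4-/- samples, so the more abundant of these lactosylceramide synthase transcripts differed between the groups. Per exon length the ratio of B4galt6 to B4galt5 was 0.0779 and 0.0809 in K-Ras and 1.46 and 1.64 in K-Ras Mll4-/- samples.

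B4galt4, which favours sulfated GlcNAc ends, was at 73.4 and 112 CPM in K-Ras and at 64.3 and 45.8 CPM in K-Ras Mll4-/- samples (log2 fold change -0.75, SE 0.28). K-Ras replicate 2 was the highest of the 4, and without it the log2 fold change was -0.43. B4galt1, the main N-acetyllactosamine synthase and the catalytic part of lactose synthase in mammary gland, was at 142 and 123 CPM in K-Ras and at 153 and 166 CPM in K-Ras Mll4-/- samples (log2 fold change 0.27, SE 0.14). B4galt3, a relative that also makes N-acetyllactosamine, was at 39.4 and 43.0 CPM in K-Ras and 46.5 and 53.4 CPM in K-Ras Mll4-/- samples (log2 fold change 0.28, SE 0.14). The groups did not overlap for B4galt1 or B4galt3, but their nearest samples were closer to each other than the replicates of either group were.

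B3gnt3 adds GlcNAc to core 1 to begin its extension and takes part in building L-selectin ligands. It was at 64.4 and 84.3 CPM in K-Ras and at 85.8 and 101 CPM in K-Ras Mll4-/- samples (log2 fold change 0.33, SE 0.19). The highest K-Ras sample and the lowest K-Ras Mll4-/- sample were almost at the same level.

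In the whole fit, the edgeR quasi-likelihood test called 6 genes (adjusted p below 0.05), all higher, or 0.0375% of the 16001 tested. B4galt6 was the 1 member of 10 among them. The call on B4galt6 was lost without K-Ras Mll4-/- replicate 1, without K-Ras Mll4-/- replicate 2, without K-Ras replicate 2, and in limma-voom. DESeq2 called 4 members (B4galt6, Gcnt1, Gcnt3 and Gcnt4), where it called 10.0% of all genes (1601 of 16001), and limma-voom called 0 members and 0 genes, with 3228 genes at an unadjusted p under 0.05. The groups did not overlap for 9 of the 10 members, 7 higher and 2 lower in K-Ras Mll4-/- tumours, and they did not overlap for 58.3% of all tested genes (29.9% higher, 28.5% lower). The median log2 fold change was 0.30 over the members and -0.01 over all tested genes. Because the set was built around this same difference in Gcnt3 and B4galt6, nothing further is read from these counts.

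**Figure D2:**
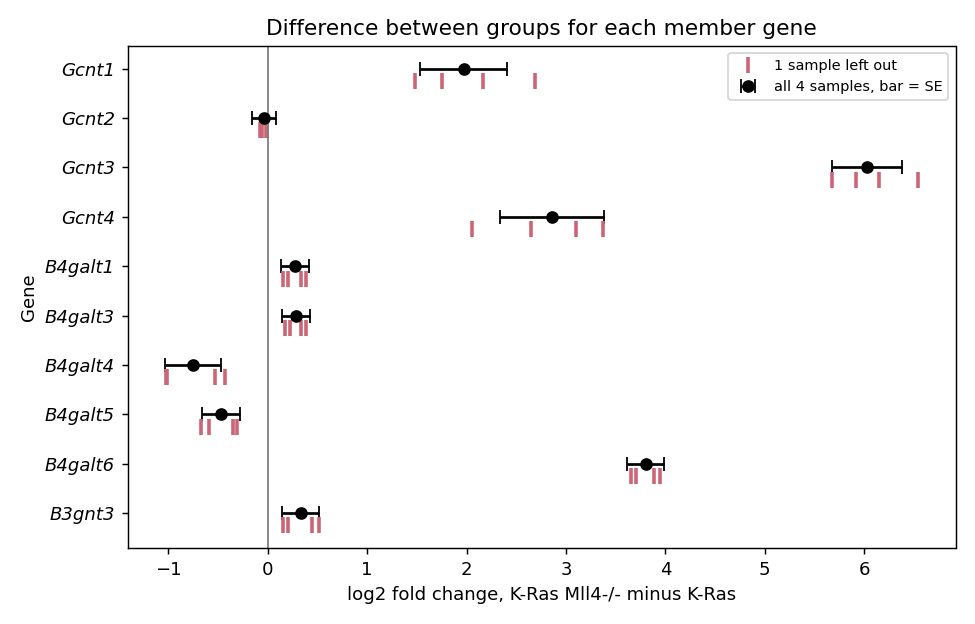
Log2 fold change of each member gene (K-Ras Mll4-/- minus K-Ras, 2 samples each) with its SE as a bar, and below it as red ticks the values with each of the 4 samples left out in turn. Gcnt3 lies between 5.68 and 6.54 and B4galt6 between 3.65 and 3.95 with any sample left out, and Gcnt2 stays between -0.08 and -0.01.

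The make-up of each family was compared within samples as the share of reads per exon length. Of the level summed over Gcnt1, Gcnt2, Gcnt3, Gcnt4 and Gcnt7, Gcnt3 held 1.28% and 2.50% in the K-Ras samples and 43.7% and 40.8% in the K-Ras Mll4-/- samples. Gcnt2 held 60.1% and 67.6% in K-Ras and 24.1% and 18.6% in K-Ras Mll4-/- samples, so the leading transcript of the family was Gcnt2 in both K-Ras samples and Gcnt3 in both others. The share of Gcnt1 overlapped between the groups, at 19.5% and 9.06% against 18.6% and 19.8%. The summed level of the 5 genes was 23.2 and 21.9 CPM per kb in K-Ras and 58.9 and 73.8 CPM per kb in K-Ras Mll4-/- samples. Without Gcnt3 the sums were 22.9 and 21.3 against 33.2 and 43.7 CPM per kb.

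In the B4galt family of 7 genes, B4galt6 held 1.30% and 1.44% of the reads per exon length in K-Ras and 18.4% and 17.1% in K-Ras Mll4-/- samples. B4galt1 was the leading transcript in 3 samples, at 29.8% to 40.8% over all 4, and B4galt4 led in K-Ras replicate 2 at 35.7%. That lead depended on the division by length, since by reads alone B4galt1 held 32% and B4galt4 29.1% in that sample. The summed level was 86.5 and 97.5 CPM per kb in K-Ras and 102 and 95.8 CPM per kb in K-Ras Mll4-/- samples, so the groups overlapped in the total while they differed in its make-up. Without B4galt6 the sums were 85.4 and 96.1 against 83.4 and 79.4 CPM per kb.

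**Figure D3:**
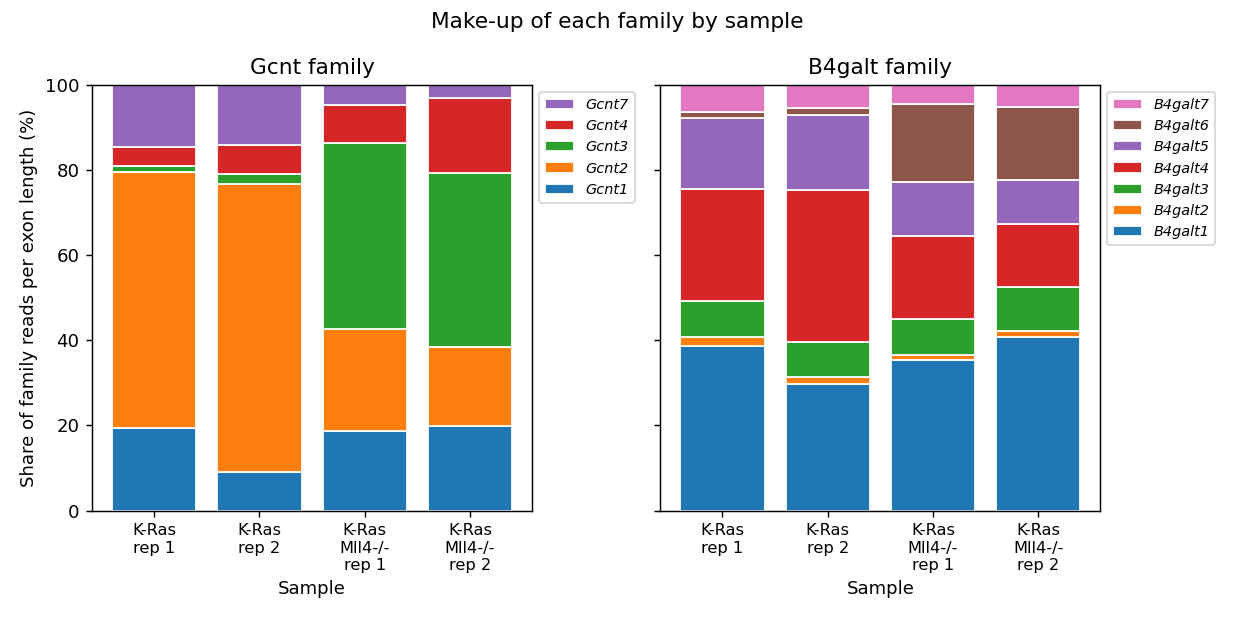
Share of each gene in the summed reads per exon length (%) of the Gcnt family (left, 5 genes) and the B4galt family (right, 7 genes), with 1 stacked bar per sample. Gcnt3 takes 43.7% and 40.8% in the K-Ras Mll4-/- samples against 1.28% and 2.50% in the K-Ras samples, and B4galt6 takes 18.4% and 17.1% against 1.30% and 1.44%.

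Levels between genes were ordered by CPM per kb of exon. In K-Ras tumours B4galt1 came first at 31.3 ± 3.13 CPM per kb, and its samples overlapped those of B4galt4 (28.8 ± 8.45 CPM per kb), which overlapped B3gnt3 (24.3 ± 4.61 CPM per kb) (SD, n = 2 each). B4galt5 and Gcnt2 followed and overlapped each other, then B4galt3 and Gcnt1. Gcnt4 and B4galt6 overlapped near the bottom, at 1.27 ± 0.292 and 1.26 ± 0.194 CPM per kb, and Gcnt3 was last at 0.422 ± 0.177 CPM per kb. In K-Ras Mll4-/- tumours B4galt1 again came first (37.6 ± 2.09 CPM per kb), ahead of B3gnt3 (30.5 ± 3.41 CPM per kb) and Gcnt3 (27.9 ± 3.06 CPM per kb), whose samples overlapped. B4galt6 was the fourth, at 17.6 ± 1.72 CPM per kb, and overlapped B4galt4 at 17.1 ± 4.07 CPM per kb.

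Some members share exon sequence with other genes in the GENCODE annotation. B4galt3 shares 14.5% of its exon bases with Ppox on the opposite strand, Gcnt4 shares 10.5% with an antisense RNA, and Gcnt2 shares 6.84% and 4.18% with a pair of antisense RNAs. Whether the authors counted by strand is not given in the sources used here, so reads there cannot be assigned with certainty. Gcnt3 and B4galt6 share no exon bases with another annotated gene.

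The remaining genes of the pathways were taken from 7 lists by role, 75 genes in all, of which 71 passed the count filter. The lists, like the members, were written with earlier results of these data known. No gene of these lists was called by the edgeR quasi-likelihood test, while 26 of the 71 (36.6%) had an unadjusted p under 0.05, 18 higher and 8 lower in K-Ras Mll4-/- tumours, against 21.8% of all tested genes (11.4% higher, 10.4% lower). DESeq2 called 14 of the 71, 11 higher and 3 lower, against 10.0% of all tested genes called. The edgeR likelihood ratio test called 14 of the 71, against 9.39% of all tested genes, and limma-voom called 0. Without K-Ras replicate 1 the quasi-likelihood test called Galnt7 and A4galt. Over the 71 listed genes the median log2 fold change in the fit of all 4 samples was 0.02, against -0.01 over all tested genes. The values below are therefore given without a statement that the genes changed. The groups did not overlap for 46 of the 71 (64.8%), 25 higher and 21 lower, against 58.3% of all tested genes. Counts and overlaps in the lists below are to be read beside these shares.

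Of the 12 other genes of the Gcnt, B4galt and B3gnt families tested, none had an unadjusted p under 0.05. Their log2 fold changes ran from -1.12 to 0.25. B3gnt9 was at 9.55 and 7.36 CPM in K-Ras and 5.64 and 5.24 CPM in K-Ras Mll4-/- samples (log2 fold change -0.64, SE 0.25, edgeR adjusted p = 0.241). B3gnt4 was low throughout, at 0.785 and 2.21 CPM against 0.762 and 0.621 CPM (log2 fold change -1.12, SE 0.63, edgeR adjusted p = 0.353). The difference in B3gnt4 was -0.20 without K-Ras replicate 2 and -1.67 without K-Ras replicate 1.

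The polypeptide GalNAc transferases, which place the first GalNAc of a mucin-type O-glycan, went in both directions. Of 16 tested, 6 were higher and 3 lower at an unadjusted p under 0.05, and none was called. Over all tested genes the shares were 11.4% higher and 10.4% lower. Galnt7 was at 28.9 and 24.2 CPM in K-Ras and 74.3 and 93.9 CPM in K-Ras Mll4-/- samples (log2 fold change 1.66, SE 0.18, edgeR adjusted p = 0.117). Galnt15 was at 49.3 and 37.6 CPM in K-Ras and 22.6 and 19.8 CPM in K-Ras Mll4-/- samples (log2 fold change -1.04, SE 0.19, edgeR adjusted p = 0.147). For both genes the groups did not overlap.

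Core 1, the acceptor on which Gcnt1, Gcnt3 and Gcnt4 act, is made by C1galt1 with its chaperone C1galt1c1. C1galt1 was at 50.3 and 56.0 CPM in K-Ras and 102 and 108 CPM in K-Ras Mll4-/- samples (log2 fold change 0.98, SE 0.13, edgeR adjusted p = 0.128). C1galt1c1 was at 20.7 and 28.9 CPM against 34.6 and 33.3 CPM (log2 fold change 0.45, SE 0.20, edgeR adjusted p = 0.276). Both K-Ras Mll4-/- samples were above both K-Ras samples for each gene.

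Among the sialyltransferases, 2 of 12 tested were higher and 4 lower at an unadjusted p under 0.05. St3gal4, which caps galactose with sialic acid, was at 72.9 and 69.3 CPM in K-Ras and 137 and 223 CPM in K-Ras Mll4-/- samples (log2 fold change 1.34, SE 0.27, edgeR adjusted p = 0.153). St3gal6, with a related activity, was at 62.0 and 66.7 CPM against 48.1 and 47.6 CPM (log2 fold change -0.43, SE 0.12, edgeR adjusted p = 0.179). These relatives thus differed in opposite directions without overlap between the groups.

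The fucosyltransferase list had 6 tested genes, 1 of them at an unadjusted p under 0.05. Fut2, the secretor enzyme of mucous epithelia, was at 8.57 and 13.9 CPM in K-Ras and 44.5 and 133 CPM in K-Ras Mll4-/- samples (log2 fold change 2.98, SE 0.62, edgeR adjusted p = 0.156). Its K-Ras Mll4-/- samples lay far from each other, with replicate 2 the higher, as for Gcnt4, and without that sample the log2 fold change of Fut2 was 1.98, while it was 3.57 without replicate 1. Fut8, the core fucosyltransferase of N-glycans, was at 51.9 and 56.0 CPM against 73.5 and 49.8 CPM (log2 fold change 0.19, SE 0.22, edgeR adjusted p = 0.637), its groups overlapped, and the sign was reversed (-0.11) without K-Ras Mll4-/- replicate 1.

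Lactosylceramide, the product of B4galt5 and B4galt6, is carried on by enzymes that compete for it. St3gal5, which makes the ganglioside GM3 from it, was at 15.1 and 23.4 CPM in K-Ras and 87.0 and 126 CPM in K-Ras Mll4-/- samples (log2 fold change 2.47, SE 0.31, edgeR adjusted p = 0.128). A4galt, which makes the globoside precursor Gb3 from it, was at 51.8 and 79.8 CPM in K-Ras and 27.8 and 23.4 CPM in K-Ras Mll4-/- samples (log2 fold change -1.36, SE 0.26, edgeR adjusted p = 0.147). The groups did not overlap for either gene. In the whole list of 10 genes, 2 were higher and 1 lower at an unadjusted p under 0.05.

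Of 13 tested genes that supply sugar nucleotides, 6 were higher and 0 lower at an unadjusted p under 0.05, against 11.4% and 10.4% of all tested genes. None of the 13 was called. Cmas, which activates sialic acid, was at 30.8 and 25.6 CPM in K-Ras and 58.1 and 70.6 CPM in K-Ras Mll4-/- samples (log2 fold change 1.19, SE 0.17, edgeR adjusted p = 0.135). Each K-Ras Mll4-/- sample was above each K-Ras sample for Cmas.

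**Figure D4:**
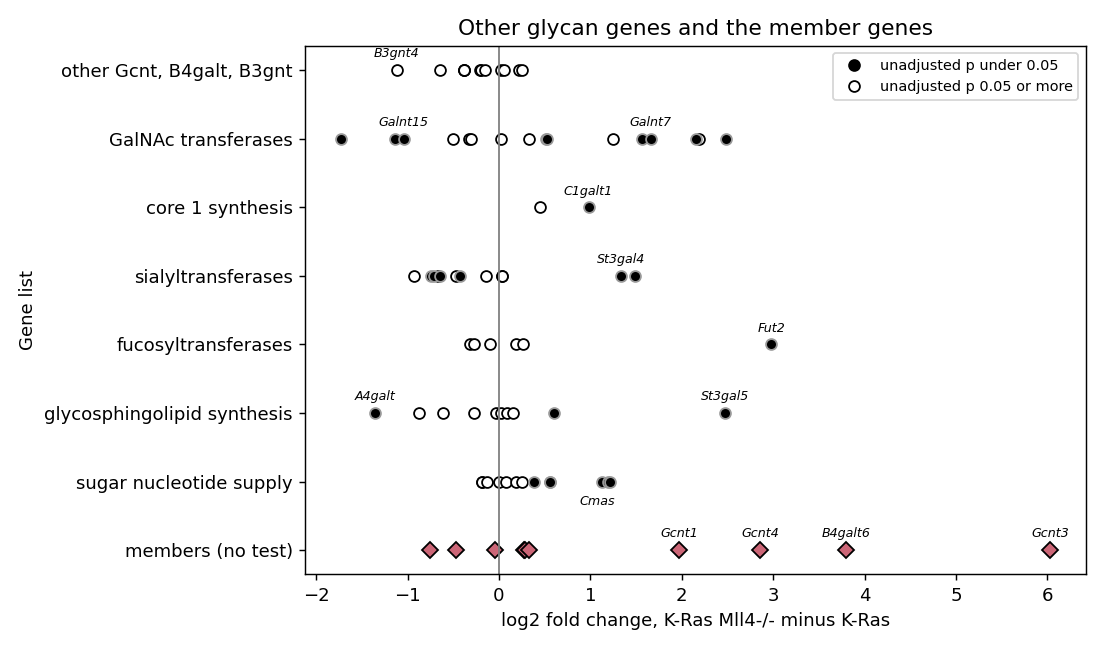
Log2 fold change (K-Ras Mll4-/- minus K-Ras) of 71 tested glycan genes in 7 lists, 1 point per gene, filled where the unadjusted edgeR p was under 0.05, with the 10 members as red diamonds without a test. No listed gene was called after adjustment, and the highest was Fut2 (2.98, and 1.98 to 3.57 with 1 sample left out). Gcnt3 (6.03) and B4galt6 (3.80) lie beyond Fut2, but they were chosen by their log2 fold changes in these samples, so nothing is read from their place.

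Genes whose levels over the 4 samples were most like those of Gcnt3 and B4galt6 were ranked by the root mean square difference of centred log2 CPM among 14482 genes. Closest to Gcnt3 were Dpcr1 (0.21), Bpifb4 (0.24) and Chst4 (0.44). Dpcr1 was at 2.06 and 3.18 CPM in K-Ras and 139 and 235 CPM in K-Ras Mll4-/- samples, and Chst4, a GlcNAc sulfotransferase gene, at 0.131 and 0.470 CPM against 10.2 and 18.6 CPM. Bpifb4 was at 0 and 0.0553 CPM in K-Ras, under the floor, and at 3.50 and 5.27 CPM in K-Ras Mll4-/- samples. Closest to B4galt6 were Tns4 (0.14), 4930546K05Rik (0.15) and Nrn1 (0.17). With 2 groups of 2 samples, likeness of this kind follows mainly from the difference between the groups.

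The samples also differed in markers of cell types, and fewer cells of a type and less RNA per cell cannot be told apart in bulk tissue. Across all tested genes the groups did not overlap for 29.9% in the higher and 28.5% in the lower direction, and the marker counts that follow are to be read beside those shares. Of 11 mucous cell markers the summed level was 111 and 367 CPM in K-Ras and 450 and 585 CPM in K-Ras Mll4-/- samples. Of the 10 tested, 4 were higher (Foxa3, Tff2, Gkn1 and Gkn2) and 1 lower without overlap. Only Gkn2 was called by the edgeR quasi-likelihood test of all 4 samples (adjusted p = 0.0184). Tff2 was at 0.981 and 2.93 CPM in K-Ras and at 9.83 and 40.1 CPM in K-Ras Mll4-/- samples. The sum was made up mostly of different genes in the groups. Gkn2 was at 317 and 384 CPM in the K-Ras Mll4-/- samples against 3.47 and 3.18 CPM in K-Ras, whereas the mucin gene Muc5b was at 92.1 and 342 CPM in K-Ras against 81.0 and 112 CPM. Spdef, a goblet cell transcription factor gene, was lower without overlap at 0.916 and 1.41 against 0.533 and 0.124 CPM, and the mucin gene Muc5ac overlapped (3.76 and 7.17 CPM against 2.44 and 30.8 CPM). Gkn1 and Tff1 were at 0 in both K-Ras samples. In the K-Ras Mll4-/- samples Gkn1 was at 29.9 and 7.88 CPM, while Tff1 had only 6 and 2 reads and did not pass the count filter.

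All 6 ciliated markers were lower without overlap, with sums of 136 and 768 CPM in K-Ras against 77.2 and 80.1 CPM. The 5 club cell markers (3 lower without overlap) summed to 1160 and 4750 against 971 and 721 CPM, of which Scgb1a1 made up 576 and 2995 against 566 and 439 CPM. The 7 endothelial markers (5 lower without overlap) summed to 4290 and 4490 CPM in K-Ras against 3210 and 2480 CPM, and the 6 fibroblast markers (5 lower without overlap) to 2460 and 1120 against 837 and 850 CPM. The 5 mesothelial markers summed to 15.0 and 18.3 CPM in K-Ras and 121 and 222 CPM in K-Ras Mll4-/- samples, almost all of it Msln (13.8 and 17.0 against 120.3 and 221 CPM). Upk3b, Lrrn4, Wt1 and Bnc1 were each under 1 CPM in every sample, with group means lower in K-Ras Mll4-/- tumours. The sums of the 7 immune markers overlapped between the groups (656 and 265 against 548 and 315 CPM), with 1 marker higher and 1 lower without overlap. Among them Ptprc, the gene of the depleted antigen CD45, was at 275 and 143 CPM in K-Ras against 269 and 171 CPM. Transcripts of leukocytes were thus still present in all 4 samples. The sums of the 8 alveolar type 2 markers overlapped too, with 1 higher and 2 lower without overlap. The 6 alveolar type 1 markers (3 higher and 1 lower without overlap) summed to 652 and 833 CPM in K-Ras against 908 and 889 CPM. The 5 neuroendocrine markers (2 lower without overlap of the 3 tested) summed to 7.36 and 5.70 against 4.65 and 4.50 CPM. No marker in these lists was at 0 in all 4 samples. The part of these cell type differences in the levels of Gcnt3, B4galt6 and their relatives was not tested.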

How the data were processed

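RNA of 4 tumour samples was analysed from the raw read counts per gene symbol that the authors deposited, 1 file per sample with 5 closing tally lines that were left out. The submitters' processing notes name CASAVA 1.4, STAR, HTSeq and the mm9 build. The annotation and strand setting are not given in the sources used here, and reads aligned to more than 1 place were tallied apart, per the file layout.

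Groups and replicate numbers came from sample titles. Counts were fitted over all 4 samples with edgeR 4.0.16 in R 4.3.3 (filterByExpr, TMM, robust quasi-likelihood test, Benjamini-Hochberg adjustment over all tested genes, called under 0.05), after a check on simulated data. The SE is the log2 fold change divided by the root of F. CPM per kb used merged exon lengths from GENCODE (GRCm38), by symbol. A length was found for 23348 of 24391 genes.

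Members and lists were chosen with earlier results of these data known. The text names all members and, from each other list, the called genes and the 2 with the smallest p among those with a mean of at least 1 CPM, besides Kmt2d and the 3 genes most like Gcnt3 and B4galt6 in pattern. The result for 1 gene that this rule names is not reported here. The cell type markers named singly were chosen after their values were seen. Alternatives were other scalings and count filters, a replicate block, DESeq2 1.42.0, the likelihood ratio test, limma-voom (limma 3.58.1), leaving out each sample, read shares without length, and GC and length offsets (mgcv 1.9.3), the last chosen after seeing the data.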

Additional observations from a re-analysis of the deposited data

How the results depend on the processing

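Each of the 10 members kept the sign of its log2 fold change under all 15 alternatives run, most of which refit the same 4 samples. The set was built around this difference in Gcnt3 and B4galt6, so the kept signs are no separate evidence. For Gcnt2 the values ran only from -0.1 to -0.01, within its SE of 0.12, so its sign carries no information. Against 6 genes called, the other scalings and the stricter count filter gave 5 to 7 calls, and 6 came with GC and length offsets (chosen after seeing the data, 15390 of 16001 genes with a value). Without a count filter 44 were called (42 higher), with DESeq2 1601, with the likelihood ratio test 1503 and with limma-voom 0. Leaving out 1 sample gave 0 to 528, with 528 without K-Ras replicate 1 and 0 without any of the others, where the lone sample of a group is assumed to vary like the other group. Of the other glycan genes 0 were called, against 1 without a count filter, 14 with DESeq2, 14 with the likelihood ratio test and 0 to 2 with 1 sample left out. The cause of these differences was not tested.

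The labels number the samples 1 and 2 in both groups but do not say what a number shares, and deviations from the group means correlated at 0.21 across genes. A replicate block in the fit called 217 genes (199 higher, 18 lower), or 1.36% of the 16001 tested. Among the 71 other glycan genes tested it called 6 (St3gal5, Fut2, Galnt3, Galnt6, Galnt7 and Galnt12, all higher). The members B4galt6, Gcnt3 and Gcnt4 were called too. The set was built around this same difference in Gcnt3 and B4galt6, so nothing is read from those calls. The block with GC and length offsets called 181 genes (1.13% of those tested), with 5 of the other glycan genes among them.

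The share of the Gcnt level held by Gcnt3 differed by 40.3 percentage points (38.9 to 41.8 with 1 sample left out) and by 33.6 without length. That of B4galt6 in its family differed by 16.4 (15.7 to 17.0) and by 21.4 without length. Depth limits Bpifb4 in K-Ras samples, where its reads are under the floor.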
